A study of Mus musculus with 12 samples.

Results

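The genes described here are *Isl1*, *Fgf8*, *Fgf10*, *Six2*, *Eya1*, *Foxc1* and *Foxc2*, a set of transcription regulators and secreted growth factors of the second heart field and outflow tract. They were taken by symbol from the RNA-seq tables of mouse embryonic hearts, and all 7 were present among the 19424 genes for which whole read counts per library could be recovered. *Foxc2* was the member that differed most clearly between genotypes. Its mutant level was 1.99 times the control level at E11.5 and 1.77 times at E12.5, and only the E12.5 difference passed the test, while its close relative *Foxc1* was at 1.11 and 1.13 times. *Isl1* was 2.23-fold lower in control hearts at E12.5 than at E11.5, a call that was lost with the sex of the embryo as a term, in a fit of all 12 libraries and without any 1 of 3 libraries. In E11.5 mutant hearts *Isl1* was lower than in every control of that stage, but its counts ran from 11 to 124 and the difference did not pass the test.

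The second heart field is a population of mesodermal progenitors that lies behind and around the early heart tube, in the pharyngeal and splanchnic mesoderm, and adds cells to both of its poles. At the arterial pole these cells build the outflow tract and right ventricle, and at the venous pole parts of the atria. *Isl1* encodes the LIM-homeodomain factor that marks these progenitors, and it is later kept in the sinoatrial node and in cardiac ganglia. The secreted ligands FGF8 and FGF10 keep the progenitors dividing, the phosphatase and coactivator EYA1 works with homeodomain partners upstream of *Fgf8*, and SIX2 marks a subset of the progenitors. FOXC1 and FOXC2 are forkhead factors of mesoderm, endocardium, cushion mesenchyme and lymphatic vessels that act upstream of *Tbx1* in this field. Because progenitors leave the field as the heart matures, a dissected heart holds these transcripts from few cells, and also from the node, nerves, cushions and vessels.

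The samples were CD1 hearts dissected at E11.5 and E12.5 by 2 genotypes, with 3 libraries for each stage and genotype and 12 in all. Controls were *Mesp1Cre*;*Hira+/fl*, and mutants were *Mesp1Cre*;*Hira-/fl*. All 12 carry *Mesp1Cre*, which recombines in the early cardiac mesoderm and its descendants, and at least 1 floxed *Hira* allele. Controls have a wild-type second allele, whereas mutants have a null second allele in every cell, so cells outside the *Mesp1* lineage were heterozygous in the mutants only. HIRA is a chaperone that deposits the histone variant H3.3, and the comparison asks which transcripts depend on it in the heart. No source used here says which libraries share a litter or whether hearts were pooled, so p-values measure the spread between these libraries only. In whole hearts, fewer cells of a type and less RNA per cell cannot be told apart.

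Total counts per library ran from 11994148 to 17483982. Levels are given as CPM, counts scaled to the size of each library with TMM, and where genes are compared with each other as RPKM, which also divides by gene length. *Hira* itself was at 77.6 ± 8.64 CPM in control and 64.8 ± 8.96 CPM in mutant hearts at E11.5, and at 74.8 ± 12.7 and 74.2 ± 5.29 CPM at E12.5 (SD, n = 3), and was not called at either stage (edgeR adjusted p = 0.607 and 0.962). Its counts cover the whole gene, so the deleted part was not seen on its own. The study itself reports recombination by PCR, by reduced exon 4 reads in the RNA-seq and by less HIRA protein on western blots. All 8 heart muscle markers were detected in all 12 libraries, with a summed level of 17145 to 24345 CPM. By the counts of 4 Y-linked genes the E11.5 controls were 3 males, the E11.5 mutants 1 male and 2 females, and both E12.5 groups 1 male and 2 females each. A change was called where edgeR's quasi-likelihood test gave a Benjamini-Hochberg adjusted p no higher than 0.05 and the fold change reached 1.5. Genes entered a comparison if their RPKM averaged 0.5 or more in its libraries. This average takes both groups, so a gene low in one group could enter through the other. Of the called genes named below, *Foxl1*, *Prph* and *Dlx5* at E12.5 and *Foxh1* over both stages averaged under 0.5 in controls. They entered through the mutants, and *Shox2* between stages in controls entered through E12.5.

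*Isl1* lies at chr13:116298281-116309689 of GRCm38 (GENCODE annotation) on the − strand with 6 exons, and *Fgf10* at chr13:118669791-118792115 on the + strand with 3. *Fgf8* lies at chr19:45736798-45742915, *Six2* at chr17:85684277-85688274 and *Eya1* at chr1:14168954-14310235, all on the − strand. *Foxc1*, at chr13:31806633-31812476, and *Foxc2*, at chr8:121116171-121118895, are single-exon genes on the + strand. Their coding sequences share the forkhead domain that binds DNA, so short reads from it could be given to either gene. Of the 240 bases most alike, which lie within this domain, 224 (93.3%) were identical, and the longest run without a difference was 53 bases. The rest of each gene is where their reads can be separated, and how the authors placed reads that match both was not given in the sources used here. A gene model of the annotation, Gm20388, spans the whole of *Foxc2* on the same strand and was not counted separately. *Fgf10* is overlapped over 20105 bases by the antisense gene Gm16263, and use of the strand in counting was not stated.

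RefSeq promoter sequences on GRCm38.p6 were matched for 4 members, *Isl1*, *Fgf10*, *Six2* and *Foxc1*. The *Isl1* promoter is printed because *Isl1* is the member that was called between stages. Its 250 bases before the start, at chr13:116309689-116309938 on the − strand, have the CCAAT motif in capitals.
Isl1: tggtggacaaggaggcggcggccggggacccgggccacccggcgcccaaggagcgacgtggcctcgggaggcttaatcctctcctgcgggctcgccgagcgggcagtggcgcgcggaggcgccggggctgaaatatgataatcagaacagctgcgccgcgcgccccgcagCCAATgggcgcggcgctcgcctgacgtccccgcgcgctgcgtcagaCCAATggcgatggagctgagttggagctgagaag
CCAAT, searched on both strands in the 250 bases before the start, was found 2 times in *Isl1*, and 33.8% of 32851 promoters held it. The *Isl1* promoter had 33 CG dinucleotides and 71.2% G and C, against medians of 6 and 52.4% over all promoters. GGGCGG was found in *Fgf10*, *Six2* and *Foxc1* and in 32.7% of promoters. The GAGA repeat GAGAGAGA was in none of the 4, and 3.26% of promoters held it.

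In RPKM, averaged over the 12 libraries, *Foxc2* had the highest level of the members at 8.92, followed by *Foxc1* at 6.92 and *Isl1* at 2.25. This order pools the genotypes: in control hearts *Foxc2* and *Foxc1* were at 6.54 ± 0.791 and 6.43 ± 0.974 RPKM at E11.5 and at 5.79 ± 1.31 and 6.64 ± 0.931 RPKM at E12.5. *Fgf10* was at 0.595, *Eya1* at 0.528, *Six2* at 0.315 and *Fgf8* at 0.259 RPKM. *Foxc1* (5.57 to 8.37 RPKM) and *Foxc2* (4.99 to 15.4) overlapped over the libraries, whereas the lowest *Foxc1* value lay above the highest *Isl1* value of 5.18. The 4 lowest members overlapped with each other. Mean counts per library were 425 for *Foxc1*, 368 for *Foxc2*, 86.9 for *Isl1*, 41.9 for *Fgf10*, 36.1 for *Eya1*, 10 for *Six2* and 5.08 for *Fgf8*. No member was at 0 in any library. The last 2 fell under the level filter in every comparison and have no adjusted p in it, and *Eya1* and *Fgf10* passed in some comparisons. The number of members tested was 4 at E11.5, 5 at E12.5, 5 between stages in controls and 3 between stages in mutants.

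**Figure D1:**
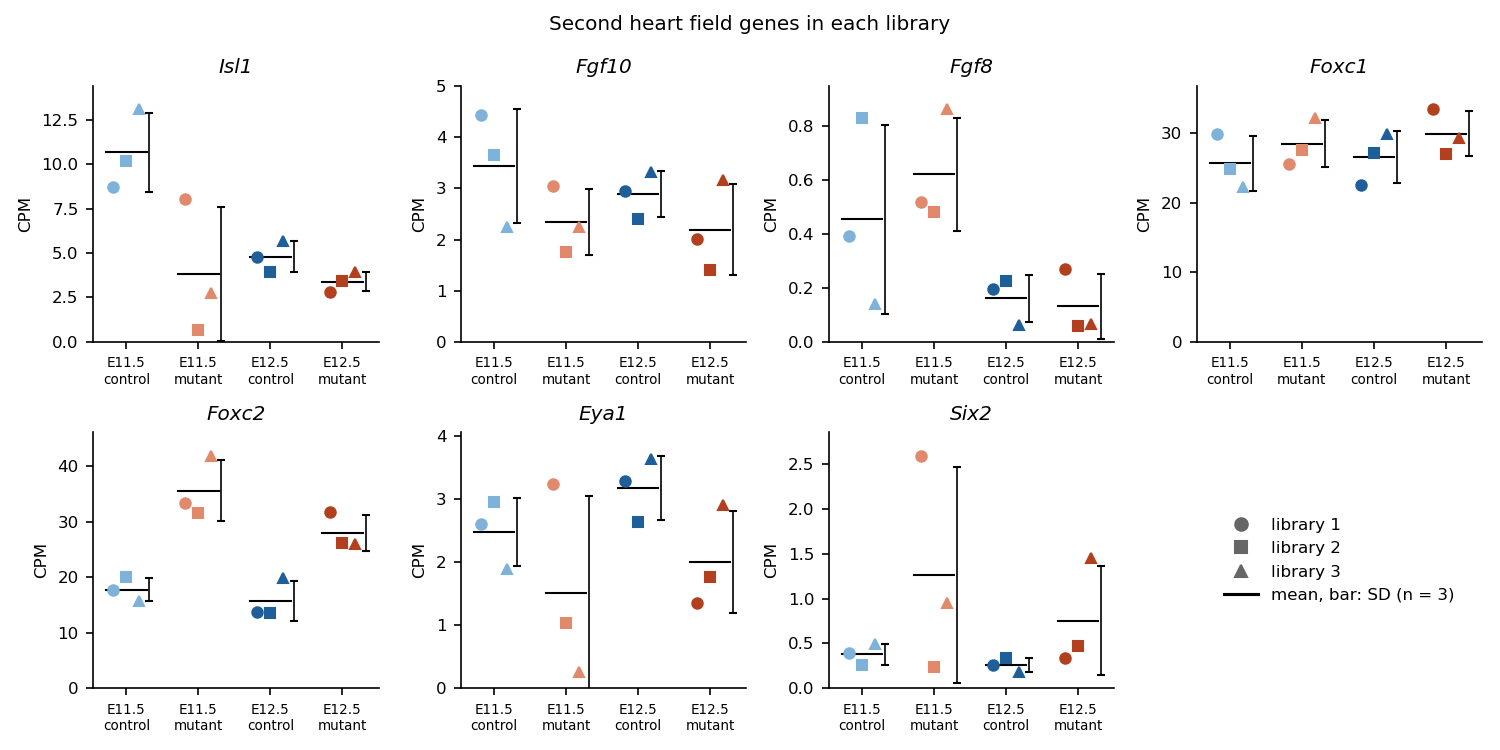
Level in CPM (y axis, from 0) of the 7 genes in the 12 libraries, by group on the x axis; each point is 1 library, lines are means and bars ± SD, drawn only above 0. The mutant points of Foxc2 lie above all control points of their stage, and the Isl1, Eya1 and Six2 points of the E11.5 mutants spread widely.

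*Isl1* counts were 134, 160 and 187 in controls at E11.5 and 124, 11 and 32 in mutants. At E12.5 it had 73, 70 and 92 counts in control and 42, 58 and 60 in mutant hearts. Every E11.5 mutant was below every E11.5 control in CPM (0.664 to 8.03 against 8.72 to 13.1), while at E12.5 the ranges narrowly overlapped (2.83 to 3.95 against 3.92 to 5.66). The means were 10.7 ± 2.21 and 3.82 ± 3.79 CPM at E11.5 and 4.79 ± 0.873 and 3.4 ± 0.561 CPM at E12.5 (SD, n = 3).

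The log2 fold change of mutant against control *Isl1* was -1.48 (SE 0.63, 95% CI -2.92 to -0.05) at E11.5, with an edgeR adjusted p of 0.468. At E12.5 it was -0.49 (SE 0.23, 95% CI -0.99 to 0.01), with an edgeR adjusted p of 0.24. E11.5 mutant library 1, with 124 counts, lay far from the other 2. Without it the log2 fold change was -2.69 (SE 0.52, edgeR adjusted p = 0.128), and over the 6 libraries left out in turn it ran from -2.69 to -0.97. *Isl1* was not called in either genotype comparison under any of 14 alternatives. With both stages in 1 fit the value was -1.0 (SE 0.39, edgeR adjusted p = 0.162).

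Between stages, *Isl1* fell in control hearts by 1.16 on the log2 scale (SE 0.22, 95% CI -1.64 to -0.68, edgeR adjusted p = 0.019), with no overlap between the stages. It was the 1 member called there of 5 tested, where 5.28% of 12252 genes were called and 37.4% had stages that did not overlap. The call was lost with the sex of the embryo as a term, when the change was -0.91 (SE 0.32, edgeR adjusted p = 0.462) and 19 instead of 647 genes were called. The E11.5 controls were all male and 2 of the 3 E12.5 controls female. It was also lost without E11.5 control 3, E12.5 control 1 or E12.5 control 2 (edgeR adjusted p = 0.056, 0.094 and 0.0859), and in the fit of all 12 libraries (0.162). In mutant hearts the stages overlapped and the change was -0.18 (SE 0.66, 95% CI -1.69 to 1.33), which became 1.03 without E11.5 mutant 1. The E11.5 controls enter both the genotype and the stage comparison, so the high *Isl1* level in them is 1 measurement seen from both sides. The difference of the genotype effect between stages was 0.98 (SE 0.75, edgeR adjusted p = 0.956).

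Other marker lists that hold *Isl1*-expressing or neighbouring tissues were read beside it. The summed level of 6 sinoatrial node markers was 163 to 203 CPM in E11.5 controls and 120 to 184 CPM in E11.5 mutants, and 171 to 211 against 185 to 203 CPM at E12.5. Most of it was *Tbx18*, at 143 ± 26.8 and 103 ± 18.7 CPM at E11.5 and 106 ± 16.6 and 116 ± 14.8 CPM at E12.5. This sum followed *Tbx18* and was not a measure of the node. Of the 6 markers, 5 were tested at E11.5 and 6 at E12.5, and edgeR, DESeq2 and limma called 0 between genotypes. In edgeR 1 had an unadjusted p under 0.05 at each stage, beside 10.2% and 21.4% of all genes. From E11.5 to E12.5 in controls, where *Isl1* fell, the node factor *Shox2* and the calcium channel gene *Cacna1d* rose by 2.82 (SE 0.54) and 1.04 (SE 0.22) on the log2 scale (edgeR adjusted p = 0.0208 and 0.0252). They were the 2 called of 6 tested, where 5.28% of all genes were called. *Shox2* counts went from 11, 9 and 13 to 46, 49 and 160. *Tbx18* went the other way, from 143 to 106 CPM, and *Tbx3* was at 13.7 and 14.2 CPM. With sex as a term 19 instead of 647 genes were called in this comparison. The summed level of 8 cardiac neuron markers was 37.6 to 67.6 against 21.1 to 30.4 CPM at E11.5 and 43.5 to 50.3 against 15.7 to 20.6 CPM at E12.5 in mutants against controls, and *Stmn2*, *Tubb3* and *Prph* carried the difference. Of 5 tested, 3 were called at E12.5, where 2.95% of all genes were called: *Prph* (log2 fold change 2.93, SE 0.37), *Stmn2* (1.87, SE 0.21) and *Tubb3* (1.16, SE 0.18), which encode a neuronal filament protein, a tubulin-binding protein and a tubulin (edgeR adjusted p = 0.00274, 0.00132 and 0.00723). The *Tubb3* call was lost in the fit of all 12 libraries (edgeR adjusted p = 0.0907). At E11.5 edgeR and limma called 0 of the 5, with 3 at an unadjusted p under 0.05 in edgeR (10.2% of all genes). DESeq2, which called 248 of all genes there, called 3 of the 5. *Phox2a*, a factor of autonomic neurons, did not go with them: at E12.5 it had 23, 18 and 15 counts in controls and 8, 9 and 5 in mutants, without overlap (log2 fold change -1.28, SE 0.41, edgeR adjusted p = 0.103). *Elavl4* was at -0.24 (SE 0.31) and -0.25 (SE 0.28) at the 2 stages. A list of 6 markers of pharyngeal muscle progenitors summed to 50.3 to 76.6 CPM in E11.5 controls and 35.4 to 42 CPM in E11.5 mutants. Nearly all of it was *Tcf21*, at 61.4 ± 13.1 and 38 ± 3.05 CPM (log2 fold change -0.69, SE 0.17, edgeR adjusted p = 0.167, called by DESeq2 and not by limma). *Myf5*, *Myod1*, *Msc* and *Musk* had 0 to 3 counts per library at E11.5. The sum therefore followed *Tcf21* and was not a measure of muscle progenitors. *Lhx2* of this list was at 0.645 ± 0.17 CPM in those controls and 1.38 ± 0.49 CPM in those mutants, and at E12.5 the sums overlapped, at 30.9 to 45.1 and 31.8 to 48 CPM. Neural crest markers summed to 134 to 149 CPM in E11.5 controls and 100 to 184 CPM in E11.5 mutants, and to 141 to 178 and 157 to 225 CPM at E12.5. These sums were nearly all *Ednrb*, at 138 ± 8.67 and 133 ± 44.7 CPM at E11.5 and 155 ± 19.9 and 176 ± 39.9 CPM at E12.5. The other crest markers averaged at most 2.38 CPM in any group. Of the crest markers 2 were tested, and *Dlx5* was called at E12.5, where 2.95% of all genes were called (log2 fold change 1.95, SE 0.46, edgeR adjusted p = 0.0366). Its E12.5 counts were 2, 7 and 6 in controls and 18, 16 and 22 in mutants. At E11.5 they were 17, 11 and 9 in controls and 18, 6 and 7 in mutants, which overlapped. Smooth muscle markers summed to 2382 to 2911 CPM in E11.5 controls and 2848 to 3417 CPM in E11.5 mutants, and to 1573 to 2083 and 2190 to 2570 CPM at E12.5. Most of it was *Acta2*, at 1747 ± 226 and 2167 ± 202 CPM at E11.5 and 1304 ± 218 and 1733 ± 129 CPM at E12.5. *Tagln* (471 and 427 CPM) and *Myh11* (2.1 and 1.11 CPM) were lower in the E11.5 mutants, and *Myh11* was under the level filter. The sum therefore followed *Acta2* and was not a measure of smooth muscle. EdgeR, DESeq2 and limma called 0 of the 4 tested between genotypes. In edgeR 0 had an unadjusted p under 0.05 at E11.5 and 3 at E12.5, beside 10.2% and 21.4% of all genes. The part of these tissues in the *Isl1* values was not tested.

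The FGF ligands were low and did not change past the thresholds. *Fgf10*, a ligand of FGFR2 expressed in the outflow tract side of the field and in lung mesenchyme, had 68, 57 and 32 counts in E11.5 controls and 47, 29 and 26 in E11.5 mutants. At E12.5 it had 45, 43 and 54 counts in controls and 30, 24 and 48 in mutants. The genotypes overlapped in CPM at both stages, and the log2 fold changes were -0.56 (SE 0.35, edgeR adjusted p = 0.691) and -0.40 (SE 0.31, edgeR adjusted p = 0.498). The 95% intervals, -1.35 to 0.24 and -1.09 to 0.29, left room for a fall of more than 2-fold as well as for none. The highest *Fgf10* count, 68 in E11.5 control 1, came from the library with the highest summed level of 5 lung mesenchyme markers, 18 CPM against 4.17 to 9.6 CPM in the other 11. Without it the E11.5 value was -0.33.

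*Fgf8*, the ligand whose loss in the field shortens the outflow tract, had 6, 13 and 2 counts in E11.5 controls and 8, 8 and 10 in E11.5 mutants. At E12.5 the counts were 3, 4 and 1 in controls and 4, 1 and 1 in mutants. At this depth a change between genotypes was not detectable: without the level filter the fitted log2 values were 0.40 (SE 0.70) at E11.5 and -0.32 (SE 0.97) at E12.5. The stages did not overlap in mutant hearts, at 0.483 to 0.863 and 0.0587 to 0.27 CPM (log2 change -2.17, SE 0.77, edgeR adjusted p = 0.399 without the filter), and overlapped in controls.

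Of 19 genes for FGF receptors, other ligands and feedback targets, 16 were tested and 0 were called at either stage by edgeR. Of these, 2 had an unadjusted p under 0.05 at E11.5 and 6 at E12.5, beside 10.2% and 21.4% of all genes. DESeq2, which called 248 and 435 of all genes at E11.5 and E12.5, called 1 and 0 of the 16, and limma 0 at both. Their median log2 fold changes were -0.07 and -0.03, beside a median over all genes of 0.00 at both stages. *Fgfr3*, a receptor of FGF9 subfamily ligands, was at 15.4 ± 1.29 CPM in E11.5 controls and 7.15 ± 0.864 CPM in mutants, and at 13.5 ± 1.08 and 9.64 ± 0.339 CPM at E12.5, without overlap at either stage. Its log2 fold changes were -1.11 (SE 0.18, edgeR adjusted p = 0.0806) and -0.49 (SE 0.13, edgeR adjusted p = 0.0505). With both stages in 1 fit *Fgfr3* was called, at -0.79 (SE 0.13, edgeR adjusted p = 0.00222). *Fgf9*, an epicardial and endocardial ligand, was at 11 ± 1.51 and 6.43 ± 2.03 CPM at E11.5 (log2 fold change -0.78, SE 0.26, edgeR adjusted p = 0.322). At E12.5 *Il17rd*, an FGF antagonist, was at 0.44 (SE 0.15, edgeR adjusted p = 0.116) and *Etv1*, an FGF-induced ETS factor, at -0.38 (SE 0.11, edgeR adjusted p = 0.0811). *Dusp6* and *Spry2*, feedback inhibitors induced by FGF signalling and the highest of this list in RPKM, were at -0.10 (SE 0.13) and -0.05 (SE 0.13) at E11.5, and *Dusp6* was at 0.33 (SE 0.09, edgeR adjusted p = 0.0706) at E12.5.

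*Foxc2* had 272, 313 and 225 counts in E11.5 controls and 514, 523 and 485 in E11.5 mutants. At E12.5 it had 211, 243 and 323 counts in controls and 472, 447 and 394 in mutants. Every mutant library was above every control library of both stages, in counts and in CPM. The means were 17.8 ± 2.15 and 35.6 ± 5.52 CPM at E11.5, and 15.8 ± 3.56 and 28 ± 3.31 CPM at E12.5 (SD, n = 3).

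The E12.5 difference in *Foxc2* was 0.83 on the log2 scale (SE 0.15, 95% CI 0.49 to 1.16), and it was called with an edgeR adjusted p of 0.0142. It was the 1 call among 5 members tested, where 2.95% of 12257 genes were called and 26.2% had genotypes that did not overlap. At E11.5 the log2 fold change was 0.99 (SE 0.16, 95% CI 0.62 to 1.36) with an edgeR adjusted p of 0.0815, so it did not pass. None of the 4 members tested was called at E11.5 by edgeR, 2 had an unadjusted p under 0.05, and limma called 0 and DESeq2 1, *Foxc2*. Over all genes edgeR called 0.115% of 12197 at E11.5, DESeq2 248 genes and limma 27. In edgeR 10.2% had an unadjusted p under 0.05, and 16.3% had genotypes that did not overlap. *Foxc2* and *Isl1* were the 2 tested members without overlap there. The exact two-sided permutation p for *Foxc2* was 0.1 at each stage, the smallest that 3 libraries against 3 allow.

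The E11.5 value passed in 4 of 14 alternatives, among them the fit of all 12 libraries (edgeR adjusted p = 0.0118) and the fit with the sex of the embryo as a term (1.24, SE 0.17, edgeR adjusted p = 0.0323). The E12.5 call held in 11 of 14 and was lost without control 1, control 2 or mutant 1, with edgeR adjusted p of 0.0652, 0.052 and 0.0552. With both stages in 1 fit, a comparison added after the values were seen, *Foxc2* was 0.91 higher (SE 0.12, 95% CI 0.66 to 1.16, edgeR adjusted p = 0.000595) and held in all 19 alternatives run, the 12 that leave out 1 library included. It was the 1 member of 5 called in that fit, in which 3.22% of 12270 genes were called. The difference of its genotype effect between stages did not pass the test (-0.17, SE 0.24, 95% CI -0.68 to 0.35, edgeR adjusted p = 0.956).

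*Foxc1*, whose product shares the forkhead domain and many targets with FOXC2, had 318 to 459 counts in E11.5 controls and 373 to 457 in E11.5 mutants, and 343 to 485 and 445 to 495 at E12.5. The genotypes overlapped at both stages. Its genotype differences on the log2 scale were 0.15 (SE 0.16, 95% CI -0.21 to 0.51) and 0.17 (SE 0.12, 95% CI -0.10 to 0.44), intervals that leave out a 1.5-fold rise. The ratio of *Foxc2* to *Foxc1* in RPKM was 0.868, 1.18 and 1.04 in E11.5 controls and 1.9, 1.68 and 1.9 in mutants. At E12.5 it was 0.901, 0.735 and 0.975 in controls and 1.4, 1.43 and 1.3 in mutants. Thus *Foxc2* stood near or below *Foxc1* in the 6 control libraries and above it in the 6 mutant libraries, with no overlap. As *Foxc1* differed little, this ratio restates the *Foxc2* difference and is not a second result.

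**Figure D2:**
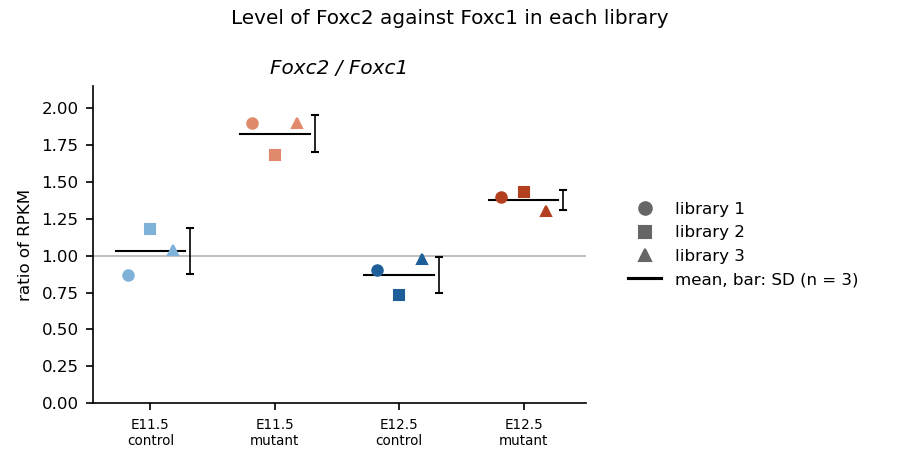
Ratio of Foxc2 to Foxc1 RPKM (y axis, from 0) in the 12 libraries by group on the x axis; points are libraries, lines means and bars ± SD (n = 3), and the grey line marks equal levels. The 6 control points lie between 0.735 and 1.18 and the 6 mutant points between 1.3 and 1.9.

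The genes beside *Foxc2* on chromosome 8 were read with it. *Foxl1*, spelled FOXL1 in the files, encodes a forkhead factor of gut and other mesenchyme and begins 9047 bases after the end of *Foxc2* by the coordinates in the deposited tables. It had 27, 22 and 16 counts in E11.5 controls and 63, 48 and 45 in E11.5 mutants, and 22, 17 and 22 against 47, 41 and 44 at E12.5. Every mutant library had more *Foxl1* counts than every control library. The log2 fold changes were 1.33 (SE 0.31, edgeR adjusted p = 0.161) at E11.5 and 1.18 (SE 0.28, edgeR adjusted p = 0.0384) at E12.5, and the E12.5 call held in 6 of 14 alternatives. It was lost without any 1 of the 6 libraries, with edgeR adjusted p of 0.0587 to 0.127. With both stages in 1 fit it was 1.25 (SE 0.19, edgeR adjusted p = 0.00182).

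On the other side, *Mthfsd*, which lies 7778 bases away, had 418 to 470 counts in E11.5 controls and 397 to 487 in mutants, and 395 to 510 and 349 to 466 at E12.5. Its log2 fold changes were 0.06 (SE 0.17, 95% CI -0.31 to 0.44) and -0.03 (SE 0.11, 95% CI -0.27 to 0.21). *Foxf1*, a forkhead gene of splanchnic mesoderm 28026 bases away, had 0 to 8 counts. The gene model Gm20388 spans *Foxl1* as well as *Foxc2*, and the coding sequences of these genes share at most 32 bases in a row (83.8% identity over 240 bases), and the share of *Foxl1* counts from a longer transcript was not tested.

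**Figure D3:**
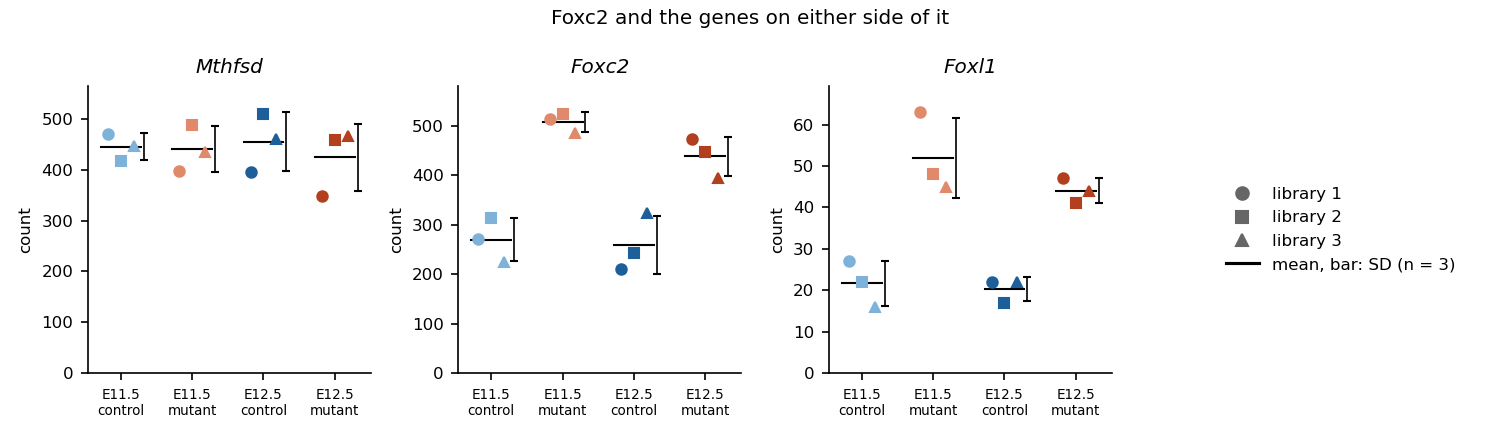
Counts (y axes, from 0) of Mthfsd, Foxc2 and Foxl1, in their order on the chromosome, in the 12 libraries by group on the x axis; points are libraries, lines means and bars ± SD (n = 3). Foxc2 and Foxl1 counts are higher in all 6 mutant libraries than in all 6 control libraries, and Mthfsd counts overlap.

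Of 9 other forkhead genes in the tables, 3 were tested. *Foxl1* was the 1 called at E12.5, where 2.95% of all genes were called. None was called at E11.5 by edgeR, with 1 at an unadjusted p under 0.05 (10.2% of all genes). DESeq2, which called 248 of all genes there, called 1 (*Foxl1*) and limma 0. *Foxp1* and *Foxo1*, the highest of this list at 12.3 and 6.27 RPKM, had log2 fold changes of 0.04 (SE 0.15) and 0.09 (SE 0.13) at E11.5 and -0.09 (SE 0.08) and -0.15 (SE 0.11) at E12.5. The other 6 were under the level filter at both stages.

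*Eya1* had 40, 46 and 27 counts in E11.5 controls and 50, 17 and 3 in E11.5 mutants. At E12.5 it had 50, 47 and 59 counts in controls and 20, 30 and 44 in mutants. The genotypes overlapped in CPM at both stages, at E11.5 because mutant library 1 had the highest value of its stage. *Eya1* was tested at E12.5, with a log2 fold change of -0.67 (SE 0.31, 95% CI -1.34 to 0.01, edgeR adjusted p = 0.239), and without mutant 3 it was -1.02 (SE 0.30, edgeR adjusted p = 0.097). At E11.5 its mean RPKM of 0.458 was under the filter, and the value fitted without the filter was -0.70 (SE 0.58).

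*Six2*, known above all from kidney progenitors and also expressed in pharyngeal mesoderm, had 6, 4 and 7 counts in E11.5 controls and 40, 4 and 11 in E11.5 mutants. At E12.5 it had 4, 6 and 3 counts in controls and 5, 8 and 22 in mutants. At each stage 1 library held most of the mutant counts, 40 of 55 at E11.5 and 22 of 35 at E12.5. The E12.5 genotypes did not overlap in CPM, by a margin of 0.336 against 0.337. Without the level filter the log2 fold changes were 1.71 (SE 0.73, edgeR adjusted p = 0.495) and 1.48 (SE 0.67, edgeR adjusted p = 0.245), and *Six2* was not called.

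Of 9 relatives of *Six2* and *Eya1* in the tables, the *Dach* genes included, 5 were tested. At E12.5, where 2.95% of all genes were called, 1 was called, *Dach1*, a corepressor that works with them. It was at 13.4 ± 1.26 CPM in controls and 8.64 ± 1.51 CPM in mutants (log2 fold change -0.64, SE 0.16, edgeR adjusted p = 0.0418), and the call held without mutant 1 and was lost without any of the other 5 libraries, with edgeR adjusted p of 0.0738 to 0.122. It was also lost with limma (-0.52, adjusted p = 0.0707) and in the edgeR fit of all 12 libraries (adjusted p = 0.246). At E11.5 edgeR, DESeq2 and limma called 0 of the 5, with 1 at an unadjusted p under 0.05 in edgeR (10.2% of all genes). *Six4* was at 0.55 (SE 0.23) and 0.49 (SE 0.17) at E11.5 and E12.5 and *Eya4* at -0.30 (SE 0.36) and -0.14 (SE 0.27). The highest of this list, *Eya3* and *Six5*, were at 0.11 (SE 0.15) and -0.28 (SE 0.14) at E11.5.

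The 2 libraries with the highest *Six2* counts also stood apart in markers of other tissues, among them pharyngeal and foregut endoderm. The summed level of 8 such markers was 16.1 CPM in E11.5 mutant 1, 14.1 CPM in E11.5 control 1 and 10.5 CPM in E12.5 mutant 3, and 0.616 to 2.59 CPM in the other 9. No marker of this list was at 0 in E11.5 mutant 1 and 1, *Shh*, in E12.5 mutant 3, whereas *Foxa1*, *Shh* and *Pax9* were at 0 in E11.5 control 1. The highest *Six2* counts, 40 and 22, were those of E11.5 mutant 1 and E12.5 mutant 3. These 2 libraries had the highest mutant counts of *Isl1* (124 and 60), *Eya1* (50 and 44) and *Fgf10* (47 and 48) of their stages. The crest marker *Tfap2b* had 103 and 75 counts in them and 0 to 5 in the other 10. E11.5 mutant 3, with 3 *Eya1* counts, had a summed endoderm level of 1.99 CPM. E11.5 control 1 was near E11.5 mutant 1 in *Epcam* (138 and 94 counts) and *Cldn6* (75 and 69) but not in *Nkx2-1* (2 and 50) or *Pax9* (0 and 28), and it had 6 *Six2* counts and the lowest *Isl1* count of the E11.5 controls. Without E11.5 mutant 1 and without E12.5 mutant 3, the log2 fold change of *Foxc2* was 1.04 (SE 0.19) at E11.5 and 0.88 (SE 0.17, edgeR adjusted p = 0.022) at E12.5. The E11.5 value was not called there, nor in any other E11.5 fit with 1 library left out. The part of such tissue in the values of *Isl1*, *Eya1*, *Six2* and *Fgf10* was not tested.

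**Figure D4:**
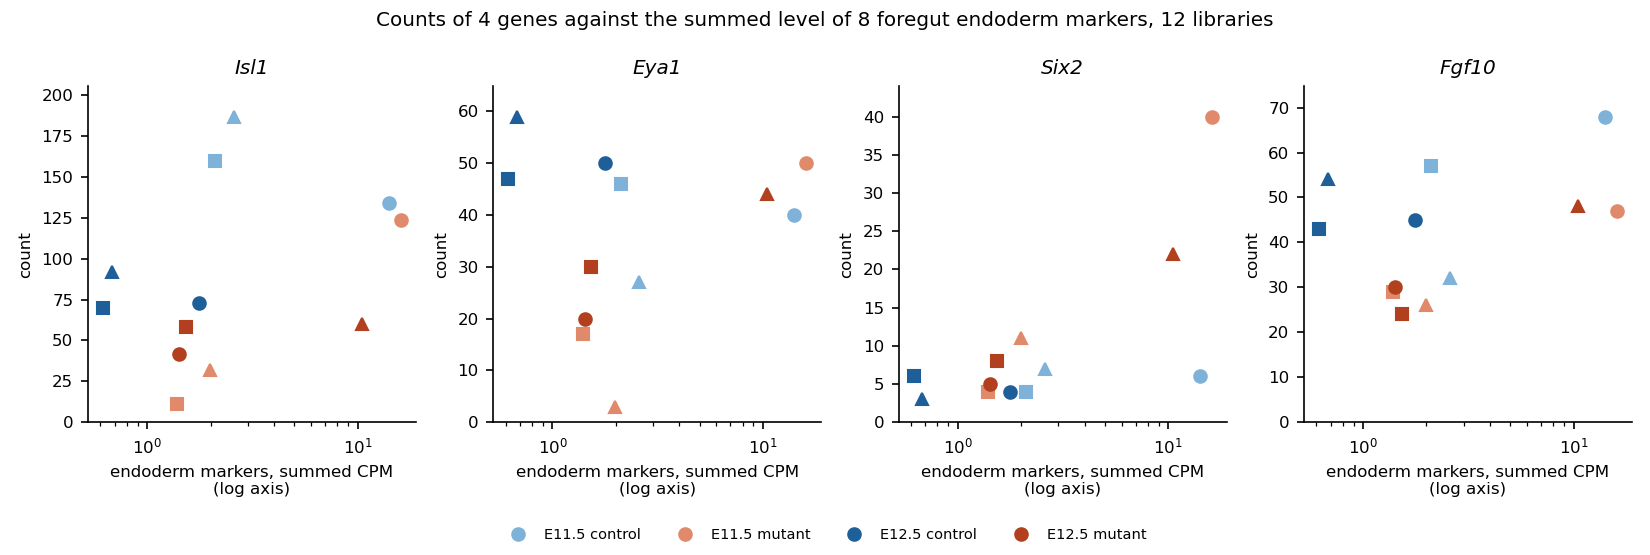
Counts of Isl1, Eya1, Six2 and Fgf10 (y axes, from 0) against the summed CPM of 8 endoderm markers (x axis, log scale) in the 12 libraries; colours are groups and circle, square and triangle are libraries 1, 2 and 3. The 3 libraries above 10 CPM on the x axis include those with the 2 highest Six2 counts, 40 and 22.

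Apart from *Isl1* in controls, no member was called between stages. In control hearts the log2 changes from E11.5 to E12.5 were -0.25 (SE 0.30) for *Fgf10*, 0.35 (SE 0.28) for *Eya1*, 0.05 (SE 0.15) for *Foxc1* and -0.18 (SE 0.17) for *Foxc2*. In mutant hearts edgeR called 0 of 3 members tested, as did DESeq2 and limma, where 0.556% of 12238 genes were called and 17.4% had stages that did not overlap. *Foxc2* there changed by -0.35 (SE 0.15, edgeR adjusted p = 0.52), the 1 member of the 3 with an unadjusted p under 0.05, beside 9.27% of all genes. For the difference of the genotype effect between stages, edgeR called 0 of the 5 members tested and 0% of 12270 genes, with 0 of the members and 551 genes at an unadjusted p under 0.05. DESeq2 called 40 genes and no member, and limma 0.

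**Figure D5:**
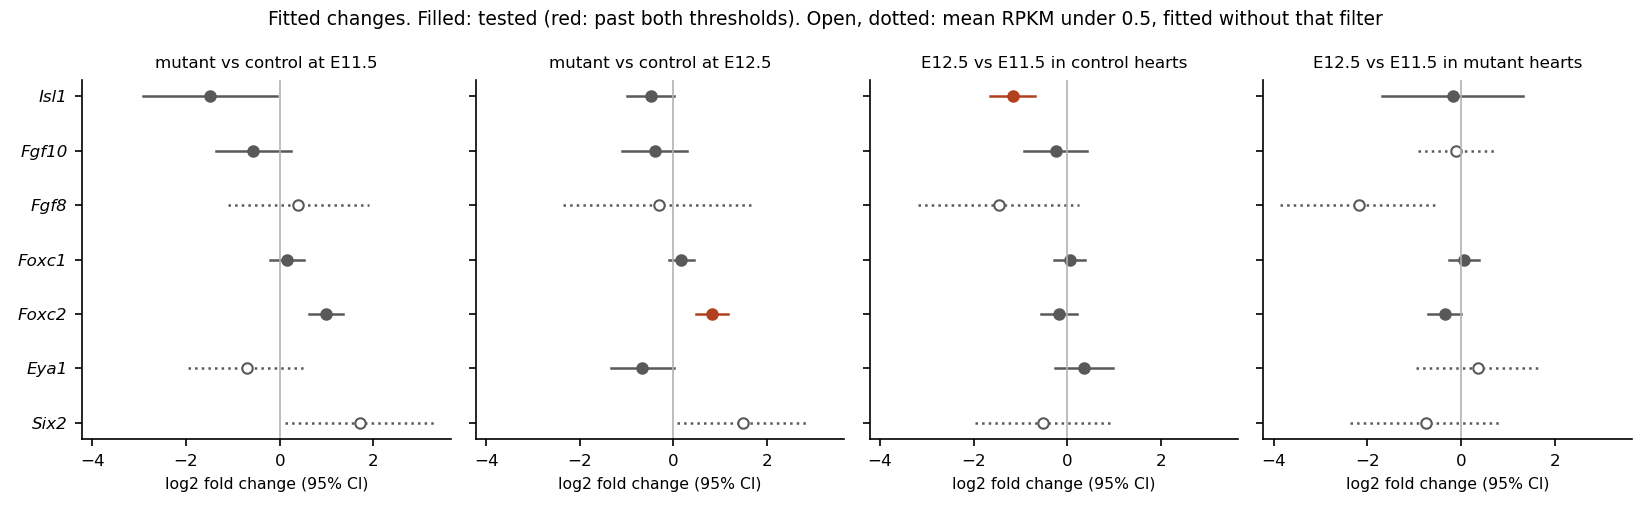
Log2 fold changes (x axis) with 95% confidence intervals from edgeR for the 7 genes (y axis) in 4 comparisons; filled points passed the level filter, open points with dotted lines were fitted without it, and red marks an adjusted p of at most 0.05 with a fold change of at least 1.5. Foxc2 at E12.5 and Isl1 between stages in control hearts are red. Of the genotype intervals, those of Foxc2 and Six2 (open) at both stages and of Isl1 at E11.5 exclude 0. The intervals are not adjusted for the number of genes tested.

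Among 18 other factors and signals of the second heart field and outflow tract, 16 were tested at E11.5 and 14 at E12.5. EdgeR called 0 at either stage, with 4 and 6 at an unadjusted p under 0.05, beside 10.2% and 21.4% of all genes. DESeq2, which called 248 and 435 of all genes at E11.5 and E12.5, called 3 and 0 of this list, and limma 0 at both. Their median log2 fold changes were -0.05 and -0.17. *Sema3c*, a guidance signal made by outflow tract muscle, was at 106 ± 20.3 CPM in E11.5 controls and 54.7 ± 24 CPM in mutants, and at 68.3 ± 9.85 and 45.9 ± 4.5 CPM at E12.5, with no overlap at either stage. Its log2 fold changes were -0.95 (SE 0.29, edgeR adjusted p = 0.261) and -0.57 (SE 0.12, edgeR adjusted p = 0.0195), the latter under 1.5-fold. *Wnt5a*, a Wnt ligand of the field, was also lower by less than 1.5-fold at E12.5 (-0.41, SE 0.08, edgeR adjusted p = 0.0162). With both stages in 1 fit *Sema3c* was called at -0.76 (SE 0.18, edgeR adjusted p = 0.0194).

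*Foxh1*, a partner of SMAD proteins in Nodal signalling, had 2, 5 and 5 counts in E11.5 controls and 19, 33 and 37 in mutants, and 1, 2 and 2 against 10, 12 and 13 at E12.5. Every mutant library lay above every control library. Its log2 fold change was 2.95 (SE 0.55, edgeR adjusted p = 0.0936) at E11.5, it was under the level filter at E12.5, and with both stages in 1 fit it was called at 2.89 (SE 0.35, edgeR adjusted p = 0.000431). Its mean RPKM was 0.221 in E11.5 controls and 1.77 in mutants, and 0.083 and 0.617 at E12.5. It thus passed the level filter only through the mutants. *Tbx1*, the T-box factor of the pharynx, had 9, 9 and 6 counts in E11.5 controls and 40, 8 and 22 in mutants (log2 fold change 1.62, SE 0.61, edgeR adjusted p = 0.388), with 40 again in E11.5 mutant 1. *Aldh1a2*, which makes retinoic acid, was at 114 ± 18.1 and 54.2 ± 16.6 CPM at E11.5 (-1.07, SE 0.23, edgeR adjusted p = 0.131) and overlapped between genotypes at E12.5 (0.17, SE 0.17). The highest of the list in RPKM, *Smarcd3*, a chromatin remodelling subunit, and *Ldb1*, whose product binds ISL1, were at -0.05 (SE 0.15) and 0.03 (SE 0.13) at E11.5.

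Between stages in control hearts, 3 of 14 tested in this list were called, where 5.28% of 12252 genes were called. *Osr1*, a factor of the posterior field, rose from 1.45 ± 0.376 to 4.2 ± 1.12 CPM (log2 change 1.52, SE 0.31, edgeR adjusted p = 0.0243). *Bmp4* and *Sema3c*, both outflow tract signals, fell from 54.4 ± 3.27 to 34.2 ± 4.25 CPM (-0.67, SE 0.11, edgeR adjusted p = 0.0133) and from 106 ± 20.3 to 68.3 ± 9.85 CPM (-0.63, SE 0.15, edgeR adjusted p = 0.0335). As for *Isl1*, these calls were lost with sex as a term, with edgeR adjusted p of 0.125, 0.411 and 0.517, and in the fit of all 12 libraries, with edgeR adjusted p of 0.0757, 0.117 and 0.12. Leaving out E12.5 control 1 or E12.5 control 2 also ended all 3 calls, with edgeR adjusted p of 0.0751 and 0.0742 for *Osr1*, 0.0695 and 0.0652 for *Bmp4* and 0.112 and 0.123 for *Sema3c*. The *Osr1* call was lost without E11.5 control 3 as well (edgeR adjusted p = 0.0685), and the *Sema3c* call without any library but E11.5 control 1.

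The genes most like each member over the 12 libraries were ranked by Pearson's r of log2(CPM + 0.5), for members with a mean of at least 50 counts, as a description of libraries that share genotype, stage and dissection. For *Isl1* they were *Sema3c* (r = 0.93), *Boc* (0.92), which encodes a Hedgehog co-receptor, and *Ypel1* (0.90). *Boc* was at 23.2 ± 1.2 and 15.7 ± 5.45 CPM in E11.5 controls and mutants and at 19.7 ± 2.47 and 17.5 ± 0.996 CPM at E12.5. For *Foxc2* they were *Abi3* (0.95), *Rasgrp2* (0.94) and *Foxl1* (0.94). *Abi3*, an actin regulator of blood and immune cells, was at 21.3 ± 5.68 and 40.3 ± 7.98 CPM at E11.5 and 20 ± 2.31 and 36.3 ± 4.34 CPM at E12.5. For *Foxc1* they were *B4galt3* (0.90), *Igfbp4* (0.89) and *Dusp2* (0.88). Within the member set, r was 0.59 for *Foxc1* with *Foxc2*, 0.61 for *Isl1* with *Fgf10*, 0.55 for *Isl1* with *Eya1* and -0.64 for *Eya1* with *Foxc2*, and with group means removed these were 0.69, 0.40, 0.51 and -0.25.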

How the data were processed

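RNA-seq reads were paired-end; per the labels they were aligned with Bowtie2 to mm10 and normalised with DESeq, and the counting program, annotation and use of the strand were not given in the sources used here. Deposited were a table for 20368 genes in 12 libraries and, for each stage, a comparison of 19424 genes with the mean count of each group. The table's values carry the name RPKM and are treated here as a score, because each deposited value is a count multiplied, not divided, by the gene's length. The deposited mean counts are averages of whole counts over 3 libraries and, since they need not be whole, were read in under the unit of expected counts. The authors' fold changes and p-values were not used. Factors were fitted on 11829 genes so that the counts of each group have the deposited mean, and 0 recovered counts lay farther than 1e-06 from a whole number. RPKM in the text was computed from the recovered counts.

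Counts were tested with edgeR 4.0.16 (quasi-likelihood, TMM, Benjamini-Hochberg over all genes tested) in R 4.3.3, in the 6 libraries of a comparison, or all 12 with an interaction term for the difference between stages. The thresholds are those of the study. It names DESeq beside a Mann-Whitney test, and the latter cannot go under 0.1 with 3 against 3. The comparison over both stages was added after the values were seen. SEs come from edgeR's F statistic. Scripts were tested on simulated data. Alternatives were DESeq2 1.42.0, limma 3.58.1 on log2(RPKM + 0.5), other filters and scaling, the 12-library fit, sex, the replicate number as a block, and each library left out. Replicate numbers carry no stated pairing, and same-numbered libraries did not deviate together in every pair.

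Named are the 7 members, *Hira*, and of each of the 4 companion lists (second heart field and outflow tract, FGF signalling, relatives of *Six2* and *Eya1*, forkhead genes) the called genes, up to 3 of largest change and up to 2 of highest level, plus the 3 genes most like each member with 50 counts or more. *Mthfsd*, *Foxf1*, *Eya4* and the marker genes named were picked with their values known. An item that falls under this rule is not reported here. The members, companion lists and markers were chosen with earlier results of these data known. SDs cover 3 libraries, and counting error is a lower limit of the error.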

Additional observations from a re-analysis of the deposited data

How the results depend on the processing

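The number of members called changed under some settings, and the cause was not tested. At E11.5 it was 0 and became 1, *Foxc2*, without the level filter, with DESeq2, in the fit of all 12 libraries and with sex as a term. With 1 library left out it stayed at 0 (0 to 0) at E11.5, and ran from 0 to 1 at E12.5 and between stages in controls. Between stages in controls it was 1, *Isl1*, and became 0 in the fit of all 12 libraries and with sex as a term. Directions reversed for values that had passed no threshold. *Foxc2* between stages in controls became 0.16 with sex as a term, and *Foxc1* in the difference between stages -0.15. *Isl1* between stages in mutants became 0.15 with limma and 0.26 with the replicate number as a block.

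With 1 library left out the log2 values ran as follows. Between stages in controls, *Foxc1* ran from -0.05 to 0.17. Between stages in mutants, *Isl1* ran from -0.70 to 1.03, *Fgf10* from -0.29 to 0.14 and *Foxc1* from -0.03 to 0.17. For the difference between stages *Fgf10* ran from -0.21 to 0.39, *Eya1* from -0.42 to 1.18, *Foxc1* from -0.11 to 0.13 and *Foxc2* from -0.27 to 0.03.

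Same-numbered libraries correlated at -0.029, 0.425 and 0.293 at E11.5 and at 0.023, 0.059 and 0.023 at E12.5, so the numbers were not taken as pairs. With the replicate block, *Foxc2* was at 0.99 (edgeR adjusted p = 0.0545) at E11.5 and 0.84 (edgeR adjusted p = 0.0073) at E12.5, *Isl1* was still called between stages in controls, and the block moved the calls over all genes from 14 to 73 at E11.5, from 362 to 424 at E12.5 and from 68 to 36 between stages in mutants. Over all genes at E11.5, DESeq2 called 248, the fit of all 12 libraries 221, no level filter 73, limma 27 and the fit with sex 29. At E12.5 the fit of all 12 libraries called 132, and between stages in controls 336 instead of 647. Between stages in mutants DESeq2 called 227, and the fit of all 12 libraries and no level filter 119 each. DESeq2 called 40 against 0 for the difference between stages. With 1 library left out the calls over all genes ran from 0 to 15 at E11.5, from 151 to 368 at E12.5, from 44 to 1407 between stages in controls (44 without E12.5 control 1, 1407 without E11.5 control 2), from 1 to 123 between stages in mutants and from 0 to 10 for the difference. Depth limited *Six2* and *Fgf8*, at 3 to 40 and 1 to 13 counts per library.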
